A study of Rattus norvegicus with 8 samples.

Results

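The p53 target genes described here are Cdkn1a, Mdm2, Ccng1, Gdf15, Btg2, Phlda3, Sesn1, Sesn2, Gadd45a and Plk2, a set of 10 genes named for the work on these arrays, with targets of the BCL2 family left out. A probe belonged to the set when the RefSeq accession printed beside it in the scanner files is an accession of one of these rat genes. In this way 9 of the 10 genes received a probe, 11 probes in all, and all 9 were among the 12379 genes tested. No accession on the array matched Sesn1, so no level is given for it.

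Kidney RNA came from male rats labelled as 10 weeks of age and was taken at day 28, from 4 samples given saline and 4 given colistin at 30 mg/kg. Colistin is a polymyxin antibiotic that injures the renal tubule, and the comparison asks how kidney transcripts differed after it. Strain, route and schedule of dosing are not given in the sources used here, and both groups shared every other label. Samples are numbered within a group, and no label says that they came from different animals, so a p-value here reflects how far these samples varied, which may include technical variation. The labelled tissue is kidney and the title mentions injured tubules. All 12 proximal tubule markers on the list passed the filter on dim probes, of which 7 were lower in every colistin array than in any saline array, as were 11.7% of all genes, and 3 had a positive difference.

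p53 is a transcription factor that is held low by Mdm2, an E3 ubiquitin ligase and itself a p53 target, and that accumulates after DNA damage and other stress. It then switches on genes that halt the cell cycle, restrain growth signalling, repair DNA or send signals to other cells. In the kidney the target best known from acute tubular injury is Cdkn1a, which encodes the cyclin-dependent kinase inhibitor p21. Several of these genes also answer to other factors. Gdf15 and Sesn2 are known targets of the stress factor ATF4, and Btg2 and Plk2 also respond within minutes to growth signals.

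p53 binds a pair of 10-base elements, and the sites found near the starts of the set show what such a pair looks like in rat. RefSeq promoters of the GRCr8 build, from 250 bases before to 50 bases after each start, were searched for pairs with an intact core in both elements, at most 2 mismatches in all and at most 13 bases between the elements. All 10 genes had a promoter in the table and Gdf15 had 2, which makes 11 promoters. A pair was found in 4 of these 11, against 1.95% of all 33469 promoters. The 4 pairs are printed with the elements in capitals and the bases between them in lower case.
Cdkn1a: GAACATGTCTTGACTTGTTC
Gadd45a: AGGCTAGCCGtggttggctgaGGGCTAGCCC
Sesn1: GCGCTTGGCCttcAAGCTTGTTT
Ccng1: CAGCTAGACCtgcccGGGCAAGCCT
The Cdkn1a pair has 1 mismatch and no base between its elements, and begins 201 bases before the RefSeq start used for the gene. Which start of Cdkn1a the kidney uses was not tested. The Gadd45a pair has 1 mismatch and 11 bases between the elements, and begins 69 bases before the start. Those of Sesn1 and Ccng1 each have 2 mismatches. An element with no mismatch stood in the same 4 promoters, inside the pair, against 7.98% of all. A match describes letters in this window, and many p53 sites lie in introns or farther upstream.

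The promoters of Cdkn1a, Gdf15 and Btg2 are printed whole because these are the genes whose saline and colistin arrays did not overlap on at least 1 probe. The Cdkn1a window lies at chr20:7150682-7150981, plus strand, with the p53 pair in capitals. The Gdf15 window is the one of its 2 with a TATA box, at chr16:18839015-18839314, plus strand, with TATAAA in capitals. The Btg2 window is at chr13:48087641-48087940, minus strand, with TGACGTCA, the cAMP response element, in capitals.
Cdkn1a: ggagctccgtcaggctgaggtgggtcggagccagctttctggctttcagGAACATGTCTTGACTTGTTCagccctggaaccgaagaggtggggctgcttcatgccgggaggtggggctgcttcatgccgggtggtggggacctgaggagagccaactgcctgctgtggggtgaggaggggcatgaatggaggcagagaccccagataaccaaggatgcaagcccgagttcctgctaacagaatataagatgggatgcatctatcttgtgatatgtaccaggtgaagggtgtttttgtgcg
Gdf15: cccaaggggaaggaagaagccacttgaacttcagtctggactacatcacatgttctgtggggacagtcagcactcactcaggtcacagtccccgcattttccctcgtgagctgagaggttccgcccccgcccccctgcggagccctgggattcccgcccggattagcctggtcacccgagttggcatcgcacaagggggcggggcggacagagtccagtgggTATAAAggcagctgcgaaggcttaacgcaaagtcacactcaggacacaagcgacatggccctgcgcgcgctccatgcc
Btg2: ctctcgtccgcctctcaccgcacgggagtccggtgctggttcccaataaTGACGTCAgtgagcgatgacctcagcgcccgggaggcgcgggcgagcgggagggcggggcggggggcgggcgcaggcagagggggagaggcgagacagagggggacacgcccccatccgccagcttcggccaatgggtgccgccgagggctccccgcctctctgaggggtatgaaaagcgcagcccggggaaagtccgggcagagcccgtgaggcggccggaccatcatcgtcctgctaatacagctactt
TATAAA was searched on the gene's strand and stood in 1 of the 11 promoters, against 8.80% of all. TGACGTCA reads the same on both strands. It stood in 2 of the 11, those of Btg2 and Plk2, against 1.83% of all, and was looked for after the sequences had been seen. TGATGNAA, an ATF4 and C/EBP composite element searched on both strands, stood in 0 of the 11, including both promoters of Gdf15 and that of Sesn2, against 3.98% of all.

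Colistin kidneys had a higher level of Gdf15 and, on 1 of its 2 probes, of Cdkn1a, while the other members did not move together. Levels are given as log2 of the processed signal relative to the 75th percentile of the same array, so that 0 is the level of that percentile and a difference of 1 is a doubling. Levels of different probes are not comparable with each other. Of the 9 genes tested, each by its brightest probe, 1 rose and 0 fell (limma with Benjamini-Hochberg adjustment over all genes), where 2.02% of all genes were called, 1.47% higher and 0.549% lower. That is 182 genes higher and 68 lower, a split that turned to 682 higher and 2668 lower with normexp background correction. At an unadjusted p under 0.05 there were 2 of the 9, Gdf15 and Btg2, where 22.7% of all genes were under that value. Of the 9, 6 had a positive and 3 a negative log2 fold change, where 45.2% of all genes tested were positive. Their median was 0.36, beside -0.14 over all genes tested. Plk2, counted in this median and among the 6, passed the filter on dim probes only through colistin arrays, which favours a positive sign. Without saline arrays 1 and 4 together the median was -0.12. In bulk tissue fewer cells of a type and less RNA per cell cannot be told apart.

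**Figure D1:**
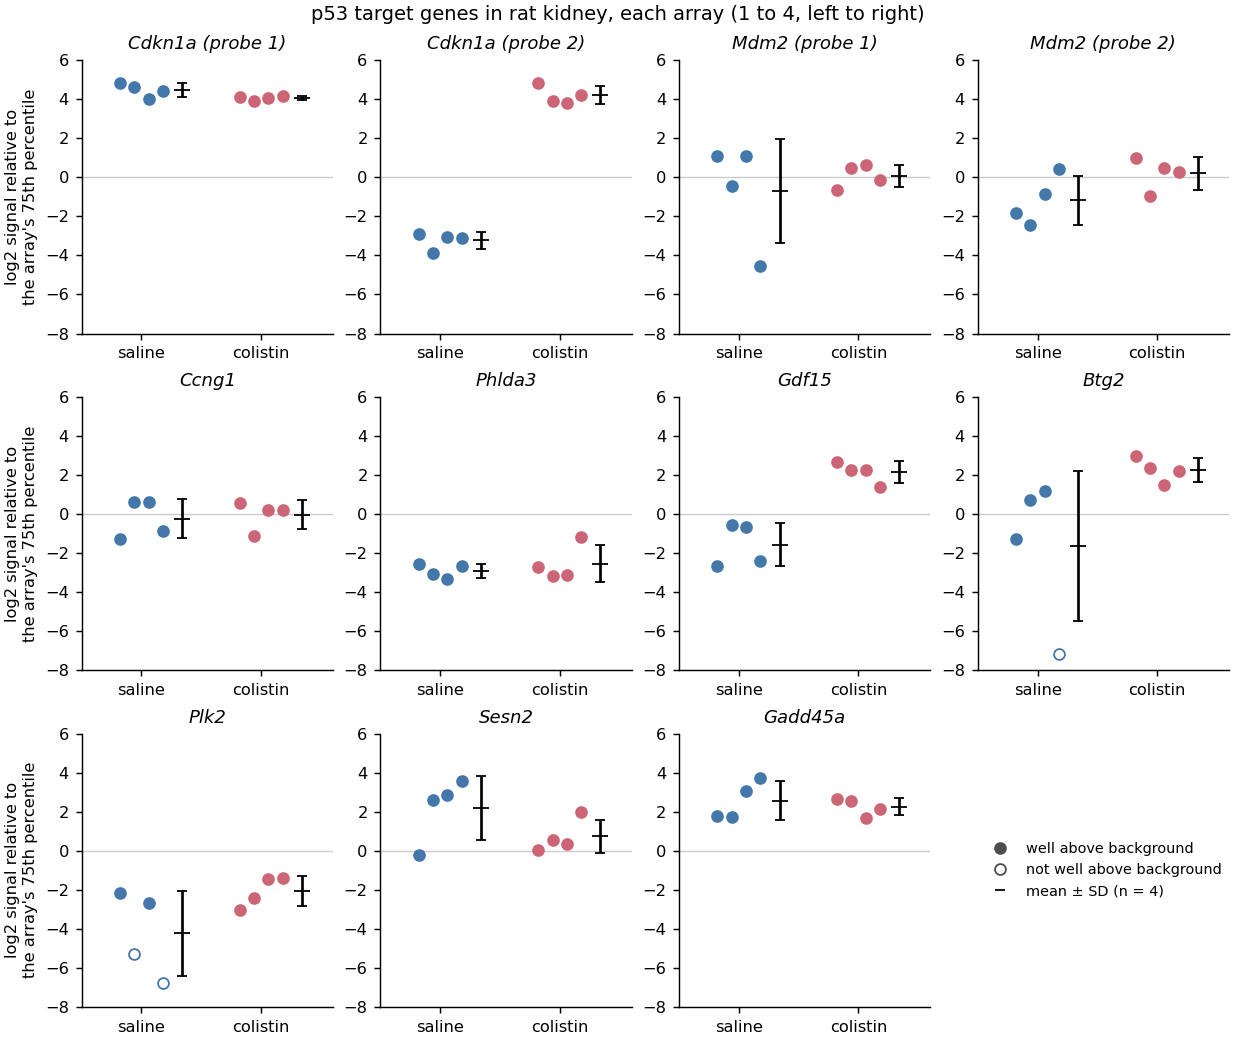
Log2 signal of each of the 11 probes on every array, relative to the array's 75th percentile, with saline arrays 1 to 4 in blue and colistin arrays 1 to 4 in red. Open circles are not well above background, and black bars give the mean ± SD of 4 arrays. Cdkn1a probe 2, Gdf15 and Btg2 are the panels in which the groups do not overlap.

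Cdkn1a was represented by a pair of probes with the same accession, of which 1 rose and the other did not pass the test. On the brighter probe, which stood for the gene in the test, saline arrays 1 to 4 had levels of 4.83, 4.63, 4.00 and 4.43, and colistin arrays 1 to 4 had 4.10, 3.92, 4.08 and 4.16. The groups overlapped, and the log2 fold change was -0.41 ± 0.29 (SE, n = 4 per group; adjusted p = 0.415, limma), with a 95% interval from -1.08 to 0.26. On the second probe the saline levels were -2.88, -3.87, -3.03 and -3.10 and the colistin levels 4.83, 3.92, 3.81 and 4.21. Every colistin array lay far above every saline array, and the spot was well above background on all 8.

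The second Cdkn1a probe thus rose by 7.42 ± 0.34 on the log2 scale, a 171-fold difference (adjusted p = 0.000187, limma over all 23659 probes, of which 1.48% were called). Among those probes it ranked 5 by the size of its rise and 3 by its p. Within slides 1, 2 and 3, each with a single array of at least 1 group, the difference was 6.91, 7.69 and 7.56. In the 8 fits that left out 1 array it ran from 7.20 to 7.54, with adjusted p of at most 0.00215. With slide or replicate number as a block, and under the other alternatives run on this probe, it also passed, 17 of 17 in all. Values ran from 5.70, with normexp background correction, to 7.65. The saline processed signals of the probe were low, 13.1 to 24.0, and the size of its rise changed with the background correction.

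The disagreement between both Cdkn1a probes was the largest among all probe pairs of a gene. For 2012 genes with more than 1 kept probe, the within-array difference between the brightest and each other probe was fitted over 2203 pairs, a test added after the data had been seen. The fold changes of a pair differed by 0.75 in the median and by up to 3.03 in 95% of pairs. For Cdkn1a they differed by 7.83 ± 0.44 (SE), with a 95% interval of the brighter minus the second probe from -8.84 to -6.81 (adjusted p = 0.000294, limma), and 0.182% of pairs passed. The scanner files hold no probe sequence, so where each probe lies on the Cdkn1a transcript, and its part in the result, was not tested. What can be stated for Cdkn1a is the value of each probe, and a single value for the gene depends on the probe chosen. The mean of the pair gave 3.50 (adjusted p = 0.00221).

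**Figure D2:**
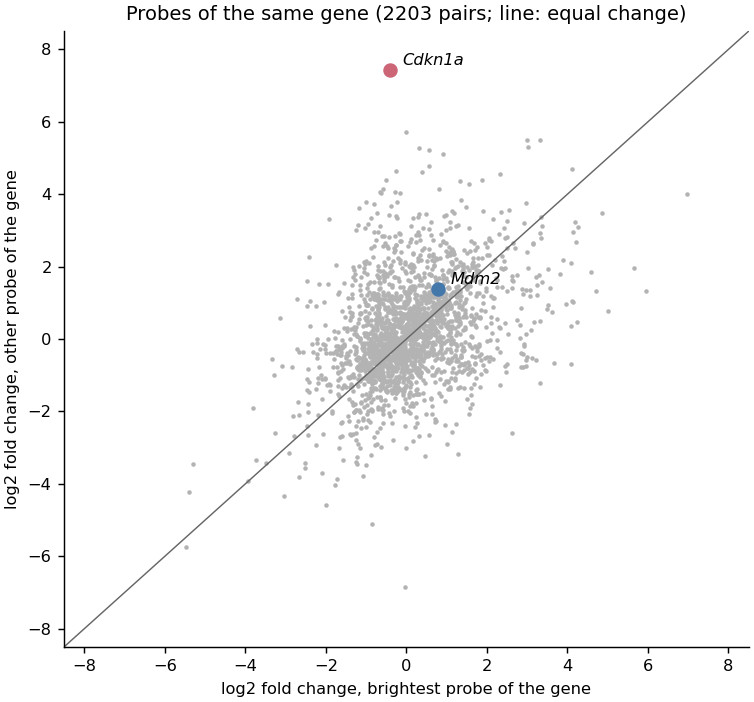
Log2 fold change, colistin minus saline, of the brightest probe of a gene (horizontal) against that of another probe of the same gene (vertical), for 2203 pairs. The line marks equal change. Cdkn1a, at -0.41 and 7.42, lies farthest from the line, and Mdm2, at 0.78 and 1.38, lies among the other pairs.

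Btg2, Plk2 and Ccng1 also belong to the arrest of the cell cycle, and none passed the test. Btg2 encodes an antiproliferative partner of the CCR4-NOT deadenylase. It had saline levels of -1.28, 0.73, 1.17 and -7.15 and colistin levels of 2.95, 2.37, 1.47 and 2.23. All colistin arrays lay above all saline arrays, and saline array 4 was not well above background. The log2 fold change was 3.89 ± 1.68 (adjusted p = 0.218, 95% interval 0.029 to 7.75). It was 2.05 (adjusted p = 0.153) without saline array 4 and 1.30 without saline arrays 1 and 4. Within slides 1, 2 and 3 it was 6.59, 0.74 and 1.41. With normexp background correction Btg2 passed (2.31, adjusted p = 0.0389), a setting in which 3350 genes did. The groups of 2 of the 9 genes, Gdf15 and Btg2, did not overlap, beside 18.6% of all genes.

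Plk2 encodes a polo-like kinase of stressed and resting cells. Its saline levels were -2.15, -5.28, -2.69 and -6.77 and its colistin levels -3.02, -2.41, -1.43 and -1.39. The groups overlapped, and only saline arrays 1 and 3 were well above background in their group. The probe therefore passed the filter on dim probes only through colistin arrays. The log2 fold change of 2.16 ± 1.02 (adjusted p = 0.248) rests in part on background values, and with normexp it was 0.15. Ccng1 encodes cyclin G1, which recruits phosphatase 2A to Mdm2. It had saline levels of -1.26, 0.62, 0.59 and -0.89, colistin levels of 0.54, -1.13, 0.21 and 0.22, and a log2 fold change of 0.19 ± 0.58 (adjusted p = 0.862, 95% interval -1.14 to 1.53). Its groups overlapped almost completely, and the sign was kept in 15 of 20 alternatives. Within slides 1, 2 and 3 the difference was -0.05, -0.41 and -0.22, of opposite sign to the pooled value.

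Mdm2, the negative regulator of p53, was read by a pair of probes. On the brighter, saline levels were 1.10, -0.44, 1.08 and -4.56 and colistin levels -0.64, 0.46, 0.61 and -0.13. Saline array 4 stood apart from the other 7 arrays. The log2 fold change was 0.78 ± 1.20 (adjusted p = 0.713), and -0.51 without saline array 4. Within slides 1, 2 and 3 it was 2.19, 1.04 and -1.47. On the second probe saline levels were -1.84, -2.43, -0.88 and 0.40 and colistin levels 1.01, -0.95, 0.48 and 0.25, with a log2 fold change of 1.38 ± 0.68 (adjusted p = 0.242 over all probes). Here saline array 4 was the highest of its group. The difference between the fold changes of the pair was 0.61 ± 1.72 (adjusted p = 0.937), and neither probe passed.

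Gdf15 encodes a secreted stress cytokine of the TGF-beta superfamily that acts on the brainstem receptor GFRAL. Its saline levels were -2.66, -0.58, -0.66 and -2.39 and its colistin levels 2.68, 2.28, 2.23 and 1.38. All 4 colistin arrays lay above all 4 saline arrays, with every spot well above background. Gdf15 rose by 3.71 ± 0.58 on the log2 scale, a 13.1-fold difference (adjusted p = 0.0225, 95% interval 2.38 to 5.05). Within slides 1, 2 and 3 the difference was 4.80, 2.81 and 2.70.

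The size of the Gdf15 rise was steadier than its call. Gdf15 has a single probe, so alternatives that change only the filter or the choice of probe refit the same values. The deposited table holds nearly the same values, and the alternatives are therefore not independent checks. Across all 20 alternatives the fold change ran from 2.76 to 4.05 and Gdf15 passed in 13. The 7 in which it did not pass include the fit with slide as a block (adjusted p = 0.0829), that without saline arrays 1 and 4 together (0.0526), and the 4 that left out 1 colistin array, where adjusted p ran from 0.0505 to 0.0706. Outside the gene lists, the genes whose levels followed Gdf15 most closely over the 8 arrays were Angptl4, which encodes an inhibitor of lipoprotein lipase (Pearson r = 0.991, log2 fold change 3.32), Srxn1, which encodes sulfiredoxin (r = 0.987, 5.59), and Atat1, a tubulin acetyltransferase gene (r = 0.982, 5.60). These correlations describe arrays that fall into a pair of groups, and any gene with a like difference between the groups would score high.

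Members that restrain growth signalling did not pass. Sesn2 encodes sestrin 2, a leucine sensor that holds back mTORC1. It had saline levels of -0.20, 2.57, 2.84 and 3.57 and colistin levels of 0.05, 0.57, 0.37 and 1.97. Saline arrays 2, 3 and 4 lay above every colistin array and saline array 1 below them. The log2 fold change was -1.46 ± 0.83 (adjusted p = 0.32, 95% interval -3.37 to 0.46), and it was negative in all 20 alternatives and within slides 1, 2 and 3 (-1.12, -2.21 and -1.83). Phlda3 encodes a pleckstrin homology protein that competes with Akt for membrane lipids. Its levels were -2.57, -3.08, -3.31 and -2.64 in saline and -2.70, -3.18, -3.11 and -1.17 in colistin arrays. Only colistin array 4 left the range of the others, and the log2 fold change was 0.36 ± 0.49 (adjusted p = 0.677, 95% interval -0.77 to 1.49). Within slides 1, 2 and 3 it was -0.57, -0.02 and 1.37.

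Gadd45a encodes a small protein of growth arrest, DNA repair and stress kinase signalling. Saline levels were 1.80, 1.70, 3.04 and 3.73 and colistin levels 2.65, 2.54, 1.68 and 2.16. The groups overlapped, and the log2 fold change was -0.31 ± 0.52 (adjusted p = 0.74, 95% interval -1.51 to 0.89). That interval leaves out a rise of the size seen for Gdf15, and so do those of the tested probes of Cdkn1a, Ccng1, Sesn2 and Phlda3. Those of Btg2 and Plk2 include it, and that of Mdm2 reaches 3.52.

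**Figure D3:**
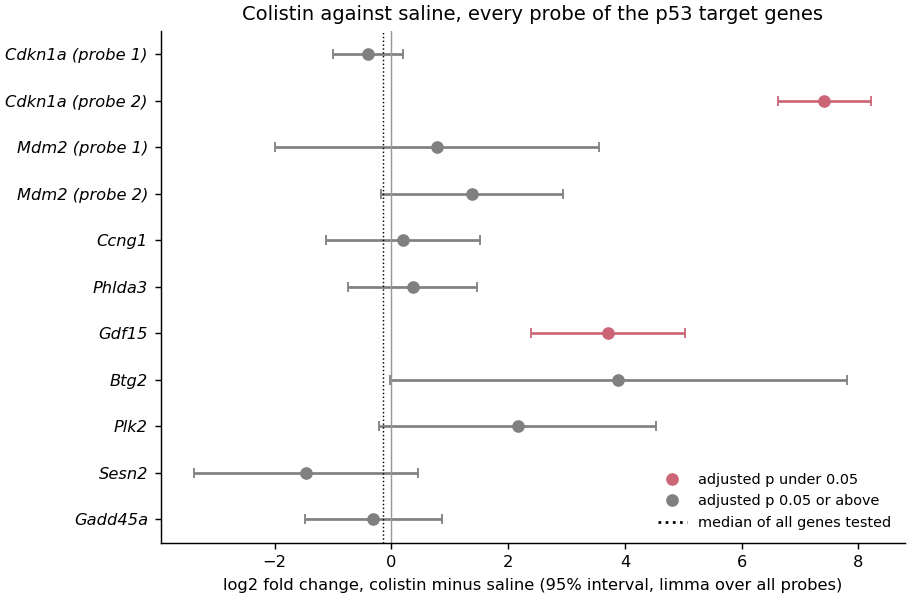
Log2 fold change, colistin minus saline, of all 11 probes with 95% intervals from the fit over all probes. Red marks an adjusted p under the threshold, and the dotted line is the median of all genes tested at -0.14. Cdkn1a probe 2, at 7.42, and Gdf15, at 3.71, are red, and the intervals of the other 9 probes include 0.

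The members spread more among saline than among colistin arrays. The SD over 4 arrays was larger in saline for 9 of 11 probes, with a median of 1.11 against 0.61. Over all genes tested the saline SD was larger in 67.2%, with a median of 0.84 against 0.59. Saline array 4 gave the lowest level of its group for Btg2, Plk2 and Mdm2 probe 1 and the highest for Sesn2, Gadd45a and Mdm2 probe 2. The saline arrays were also dimmer, with 75th percentiles of processed signal of 156 to 197 against 271 to 317, and with 69.3% to 75.8% against 79.1% to 83.9% of spots well above background. Brightness moved with the group, and its part in these results was not tested.

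Levels of the marker lists moved with the groups too. The summed signal of 12 proximal tubule markers, in multiples of the array's 75th percentile, ran from 777 to 1195 in saline and from 282 to 527 in colistin arrays. For 12 thick ascending limb and distal markers it ran from 97.3 to 145 against 2.88 to 36.0, for 10 endothelial markers from 38.2 to 58.9 against 4.99 to 8.16, and for 8 macrophage markers from 20.9 to 33.5 against 9.63 to 13.9. For 10 tubular injury markers it ran from 6.04 to 11.6 against 66.0 to 114, and no sum overlapped between the groups. A sum is led by its brightest probes. The 3 injury markers that rose, Havcr1, Spp1 and Anxa2, made up 60.3 to 92.1 of the colistin sums, while the other 7 summed to 4.09 to 7.33 in saline and 4.93 to 21.9 in colistin arrays, which overlapped. The median log2 fold change of the 10 was 1.25, each read by its brightest probe. Cd44, among the 7, gave 0.91 in this way, while another of its probes gave 5.12 and passed over all probes (adjusted p = 0.0288, limma). Its remaining probes gave 1.53 and 2.70 and did not pass. The part of these shifts in the values of Cdkn1a and Gdf15 was not tested.

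Other genes activated by p53 gave 2 rises and 1 fall among 47 tested, with a median log2 fold change of 0.06. Of all genes 1.47% rose and 0.549% fell. At an unadjusted p under 0.05 (limma) there were 13 of the 47, beside 22.7% of all genes. Dyrk3, which encodes a kinase of stress granules, and Steap3, which encodes a ferrireductase, rose. Neither was well above background on any saline array, while both were on all 4 colistin arrays. Both therefore passed the filter on dim probes only through the colistin group. The log2 fold changes of Dyrk3 (5.55, adjusted p = 0.00319, limma) and Steap3 (3.58, adjusted p = 0.0155) are set against background values. Allowing for background, Dyrk3 was at least 12.4-fold higher and Steap3 at least 4.51-fold higher, bounds that were not themselves tested. These bounds set the colistin mean against the higher of the saline signal and the lowest signal well above background on each array. Acer2, which encodes an alkaline ceramidase, fell by 2.45 ± 0.47 (adjusted p = 0.0432). With slide as a block Dyrk3 kept its call, and Steap3 and Acer2 did not. Of 20 alternatives Dyrk3 was called in 18, Steap3 in 15 (not with normexp or without colistin array 1) and Acer2 in 5, none of which left out an array. Dyrk3 and Steap3 could not be fitted among probes well above background on all 8 arrays, a setting counted here as no call.

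The larger differences in that list that did not pass were Zmat3, which encodes an RNA-binding protein (3.23, adjusted p = 0.162), the stress gene Ier3 (2.52, adjusted p = 0.152) and Kitlg, which encodes stem cell factor (-2.45, adjusted p = 0.203). A second probe of Zmat3 gave -0.58, of opposite sign. Apaf1, the apoptosome scaffold, is named after its values were seen. Its brighter probe gave 2.31 (adjusted p = 0.0586), and its other probe gave 4.56 and passed over all probes (adjusted p = 0.0353).

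Genes that set the level or activity of p53 gave 0 calls among 20 tested (limma; 5 at an unadjusted p under 0.05, beside 22.7% of all genes), with a median of -0.02. Mdm4, the relative of Mdm2 that blocks p53, gave -0.04 ± 0.64, and Ppm1d, a phosphatase that ends p53 signalling, gave 0.10 ± 0.84 with 2 of 4 saline and 3 of 4 colistin arrays well above background. The largest differences were for the checkpoint kinase gene Chek2 (1.76, adjusted p = 0.364), the corepressor gene Trim28 (1.50, adjusted p = 0.0739) and the acetyltransferase gene Kat5 (-0.95, adjusted p = 0.107).

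Family relatives of the members gave 0 calls among 19 tested (limma; 5 at an unadjusted p under 0.05). The other CIP/KIP inhibitors, Cdkn1b (p27) and Cdkn1c (p57), gave 1.16 ± 0.62 and 1.22 ± 1.75, and a second Cdkn1c probe gave -0.48. Gadd45b gave -0.02 ± 0.89, Gadd45g -0.67 ± 0.43 and Sesn3 0.36 ± 1.23. Ccng2, which encodes cyclin G2, gave -2.41 ± 0.75 (adjusted p = 0.134) and 2.27 on a second probe. Plk1 and Phlda1 had positive differences of 3.25 and 3.16 (adjusted p = 0.167 and 0.19). Only 1 of the 4 saline arrays read Plk1 well above background, and its difference is therefore set against background values.

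Downstream partners of the members gave 0 calls among 23 tested (limma; 6 at an unadjusted p under 0.05). Cdk4, the kinase that p21 binds with cyclin D, gave 2.25 ± 0.52 (adjusted p = 0.0741), and Akt1 gave 1.77 ± 0.65. The Gdf15 receptor gene Gfral gave -1.66 ± 0.48 (adjusted p = 0.119). Its mean levels were low, -4.14 in saline and -5.80 in colistin arrays, with only 2 of 4 colistin arrays well above background. The cell cycle genes that p21 and the DREAM complex hold down gave 0 calls among 22 (limma; 8 at an unadjusted p under 0.05, beside 22.7% of all genes). Their median was 0.81 and 15 of 22 were positive, beside 45.2% of all genes tested. Plk1, Foxm1, Aurka and Bub1, all positive, passed the filter on dim probes only through colistin arrays, a route that favours a positive sign. Chek1 (-0.02) passed by the same route, and Ccne2 (-1.61) only through saline arrays. Foxm1, the mitotic transcription factor gene, gave 3.82 (adjusted p = 0.0976) with 1 of 4 saline arrays well above background. Rrm2, a ribonucleotide reductase subunit gene, gave 3.62 (adjusted p = 0.0758) on its brightest probe and 0.74 on a second probe.

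The senescence list gave 0 rises and 2 falls among 13 tested (limma; 4 at an unadjusted p under 0.05). The insulin-like growth factor binding protein genes Igfbp5 and Igfbp3 fell by 2.85 ± 0.47 (adjusted p = 0.025) and 1.73 ± 0.34 (adjusted p = 0.0492). Neither was called with slide as a block. Of 20 alternatives Igfbp5 was called in 11, with 2 of the 8 that left out 1 array (saline array 4 or colistin array 3), and Igfbp3 in 6, with none of those 8. Ccl2, which encodes a monocyte chemokine, gave 3.92 (adjusted p = 0.0557) with 2 of 4 saline arrays well above background, and Cxcl1, a neutrophil chemokine gene, gave 1.95 (adjusted p = 0.381) with 1 of 4. Lmnb1, which encodes lamin B1, gave -0.90 (adjusted p = 0.16).

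Genes that share regulators with Gdf15, Btg2 and Plk2 were set beside them. The ATF4 list gave 0 calls among 17 (limma; 6 at an unadjusted p under 0.05), with a median of 0.64. Its genes did not share a direction, with 11 positive and 6 negative. In 3 every colistin array lay above every saline array, and in 2 every one lay below. Atf3 gave 4.02 ± 1.10 (adjusted p = 0.105), and Asns, which encodes asparagine synthetase, gave 3.93 (adjusted p = 0.131). Of 11 immediate early genes 2 rose and 0 fell (limma; 8 at an unadjusted p under 0.05), with a median of 2.45. By sign 7 were positive and 4 negative. In 5 every colistin array lay above every saline array, and in 2 every one lay below, beside 6.91% and 11.7% of all genes. Zfp36, which encodes the RNA-decay factor tristetraprolin, rose by 2.45 ± 0.43 (adjusted p = 0.0309), and Ier5 rose by 2.93 ± 0.55 (adjusted p = 0.0397), with -0.19 on a second probe. Dusp1, which encodes a phosphatase of stress kinases, gave 3.23 (adjusted p = 0.188), and Jun gave 2.72 (adjusted p = 0.149). Neither Zfp36 nor Ier5 was called with slide as a block. Of 20 alternatives Zfp36 was called in 10 and Ier5 in 8, and of the 8 that left out 1 array both were called only without saline array 1. No list was tested as a set, and these counts and medians are descriptions beside the 2.02% called, the 22.7% at an unadjusted p under 0.05 and the median of -0.14 over all genes.

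**Figure D4:**
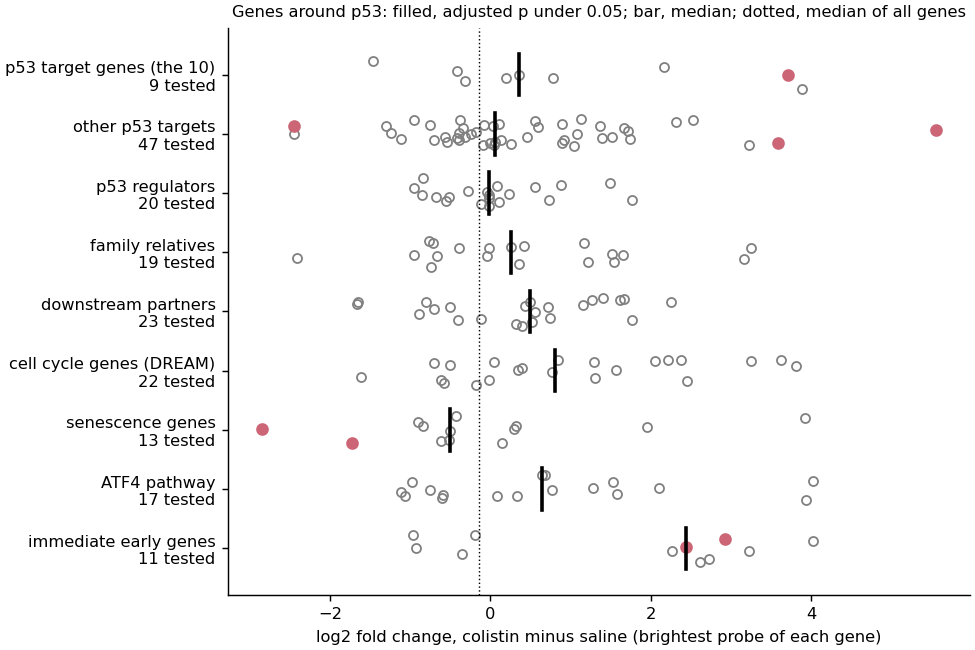
Log2 fold change, colistin minus saline, of every tested gene in 9 lists, by the brightest probe. Filled points passed over all genes, vertical bars are list medians and the dotted line is the median of all genes tested at -0.14. The median of the p53 target genes is 0.36, of the other p53 targets 0.06, of the p53 regulators -0.02 and of the immediate early genes 2.45.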

How the data were processed

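Total RNA was amplified to Cy3-labelled SPIA cDNA and read on 1-colour Agilent arrays, per the labels' protocols. The authors deposited a scanner table for each array, with linear spot intensities. The software was Agilent Feature Extraction 10.5, a version credited to the processing notes of the submitters. The processed signal column is background-subtracted within an array, per the file headers, and its level still differed between arrays. The deposited whole-series table holds log2 values of unstated scale and centring. Its differences between columns followed those of log2 processed signal (r of 0.99988 or above), so the direction is that of the signal, and every probe had a median near 0 over the arrays. Column medians were 0.232, 0.0227, 0.0862 and 0.195 for saline and -0.113, -0.229, -0.0885 and -0.0324 for colistin arrays 1 to 4.

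Spots flagged as non-uniform or outlying (257 to 461 per array) were left out, copies of a probe were averaged, and log2 signal was set against the array's 75th percentile. A probe was kept when 3 or more of the 4 arrays in a group read it well above background. RefSeq accessions named 18643 of 30367 probes through a table of the GRCr8 assembly, used for names and for promoter sequences. A gene was represented by its brightest probe. Groups were compared in limma 3.58.1 under R 4.3.3 with lmFit and eBayes, two-sided, with a threshold of 0.05 on the Benjamini-Hochberg adjusted p over all genes, or over all probes for second probes. The code was tested on simulated data. The number of arrays limits precision.

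Both groups lay on each of 3 slides. Slide 1 held 2 saline and 1 colistin array, slide 2 held 1 of each, and slide 3 held 1 saline and 2 colistin arrays. Differences within a slide thus rest on a single array in at least 1 group. Replicate numbers did not pair the samples, with correlations of deviations from -0.02 to 0.012 between arrays of the same number. Scanner files gave median but no mean spot signals, so normexp used medians. Named genes outside the set were, per list, those that passed, up to 3 others with the largest differences, and a few fixed relatives, with exceptions stated, and marker lists are given as sums. The members and lists were chosen with earlier results of these data known. The value of 1 gene that the naming rule covers is not reported here.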

Additional observations from a re-analysis of the deposited data

How the results depend on the processing

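Over all genes 250 changed (182 higher, 68 lower). With normexp 3350 did (682 higher, 2668 lower), and the median of all genes moved from -0.14 to -0.34. The count was 40 with slide as a block, 5 with the replicate block, 141 without saline arrays 1 and 4 together, and 78 to 254 with 1 array left out, falling to 98, 106, 110 and 78 without colistin array 1, 2, 3 and 4. Among the p53 target genes 2 changed with normexp (Gdf15 and Btg2), 2 with the mean of a gene's probes and 2 with its dimmest probe (Gdf15 and Cdkn1a), the last added after the data were seen. With slide as a block, with the replicate block, and without saline arrays 1 and 4 the count was 0, with 1, 2 and 3 at an unadjusted p under 0.05, and it was 0 to 1 with 1 array left out. Gdf15 had its highest adjusted p, 0.0958, with the replicate block, which also ended the calls of all genes named from the other lists. The replicate numbers share no more than a number, 1 of 4 saline arrays correlating best with its own. The median of the set rose to 1.08 with the mean and 1.38 with the dimmest probe, and ran from 0.0757 to 0.575 with 1 array left out. Cdkn1a turned from -0.41 to 3.50 with the mean and 7.42 with the dimmest probe, which replace or dilute the tested probe by construction. For the other changes the cause was not tested. A gene with a single probe is refitted on the same values when only the filter or the probe choice changes. Counts over alternatives are therefore not counts of independent checks. Signal near background limits Btg2 and Plk2, which could not be fitted among probes well above background on all 8 arrays.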
